A study of Rattus norvegicus with 12 samples.

Results

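Genes of red blood cells and their precursors were followed in fetal rat pituitaries as a measure of the fetal blood that the dissected tissue carried. The 8 genes are Alas2, Slc4a1, Epb42, Klf1, Gata1, Hemgn, Hbb and Hba-a2, and each was read from the array probes that carry its symbol in the deposited files. All 8 were found, through 10 of the 30367 probes that are not controls, with 2 probes each for Hbb and Hba-a2. All 10 probes were well above background on all 12 arrays and none was saturated, so all 8 genes were among the 19399 genes tested. The rule takes them by name and uses no measured value, but the names were chosen with earlier results of these data known.

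The study compared pituitaries of Wistar rat fetuses from TCDD-exposed and control pregnancies at gestational day 18, to ask what maternal dioxin exposure does to pituitary transcripts. TCDD is 2,3,7,8-tetrachlorodibenzo-p-dioxin, a ligand of the aryl hydrocarbon receptor. There were 4 groups of 3 arrays, namely TCDD-exposed males, control males, TCDD-exposed females and control females. All groups shared the strain, the age, the tissue and its storage in an RNA stabilising reagent. The labels give neither the dose of TCDD nor the day of dosing. Nor do they tell litters apart or single glands from pooled ones, so p-values measure the spread between these samples only, which may be partly technical.

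Red cells of a fetus come from the yolk sac and later from the fetal liver, and many still carry nuclei or RNA when they circulate. Heme is made in mitochondria and joined to alpha-type and beta-type globin chains, while a skeleton of spectrin, ankyrin and associated proteins shapes the membrane. The transcription factors GATA1 and KLF1 drive this programme through GATA and CACCC-type elements near erythroid genes. In a whole tissue these transcripts report on blood in its vessels, and in bulk RNA fewer cells of a type and less RNA per cell cannot be told apart.

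The levels rest on single 60-base probes, and the sequences of 5 of them are shown to make clear which transcript was read. They lie, on the rn4 build, at X:39810353-39810412 on the plus strand (Alas2), 3:107808613-107808672 on the minus strand (Epb42), 19:24908511-24908570 on the minus strand (Klf1), X:26570758-26571261 on the plus strand (Gata1, a probe that spans 504 bases of genome) and 10:15585140-15585199 on the minus strand (the dimmer probe of Hba-a2). In the Hba-a2 probe the capitals mark the start codon, which is preceded by 17 bases.
Alas2: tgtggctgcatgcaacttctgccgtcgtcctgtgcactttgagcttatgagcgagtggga
Epb42: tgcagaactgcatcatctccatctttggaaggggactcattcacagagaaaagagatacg
Klf1: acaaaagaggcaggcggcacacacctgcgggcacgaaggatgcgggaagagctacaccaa
Gata1: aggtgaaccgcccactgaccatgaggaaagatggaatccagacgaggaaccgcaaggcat
Hba-a2: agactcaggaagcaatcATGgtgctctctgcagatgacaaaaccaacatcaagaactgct
The other probes lie on rn4 at 10:91455352-91455411 (Slc4a1), 5:62955839-62955898 (Hemgn), 1:161584872-161584931 and 1:161620134-161620193 (Hbb, brighter and dimmer) and 10:15584360-15584419 (Hba-a2, brighter), all on the minus strand. The brighter probe of each globin holds the letters AATAAA of a polyadenylation signal, and the dimmer one holds the start codon. Globin genes have near-identical copies, so their readings are uncertain between copies. The brighter Hbb probe also lists transcripts of Hbb-b1 and Hbbl1. The files' Hba-a2 probes both carry an accession that RefSeq now names Hba-a1, and the dimmer one lists Hba-a1 and Hba-a2.

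The promoters of these genes were also read for GATA and CACCC-type letters. RefSeq promoter windows on GRCr8 were found for 7 of the 8 genes, as 8 windows, of which the 250 bases before the start were searched on both strands. The searched letters were AGATAA or AGATAG and likewise TGATAA or TGATAG for GATA elements, and CCNCNCCC for a CACCC-type element, and no match to one overlapped a match to the other. Of 33469 promoters of the table, 27.02% held a GATA match, 42.78% a CACCC-type match and 7.57% both. GATA letters were found in windows of Alas2, Epb42, Hba-a2, Hemgn and Klf1, and CACCC-type letters in windows of Gata1, Hba-a2, Hbb and Hemgn. The windows of Alas2, Klf1 and Hbb are shown as examples for the first heme enzyme, a transcription factor and a globin, with their single match in capitals. They lie at X:22895200-22895449 on the plus strand (Alas2, GATA letters beginning 136 bases before the start), 19:40158652-40158901 on the minus strand (Klf1, GATA letters read on the opposite strand, beginning 26 bases before the start) and 1:167663722-167663971 on the minus strand (Hbb, CACCC-type letters beginning 98 bases before the start).
Alas2: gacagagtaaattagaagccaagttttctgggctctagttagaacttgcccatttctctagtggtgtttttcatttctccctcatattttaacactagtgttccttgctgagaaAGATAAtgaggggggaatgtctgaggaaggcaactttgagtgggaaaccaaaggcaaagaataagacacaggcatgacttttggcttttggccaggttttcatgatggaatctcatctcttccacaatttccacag
Klf1: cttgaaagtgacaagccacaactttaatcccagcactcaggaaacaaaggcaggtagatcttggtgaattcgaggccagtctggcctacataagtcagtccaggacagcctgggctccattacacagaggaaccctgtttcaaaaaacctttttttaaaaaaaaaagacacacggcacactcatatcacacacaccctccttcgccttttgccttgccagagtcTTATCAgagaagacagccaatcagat
Hbb: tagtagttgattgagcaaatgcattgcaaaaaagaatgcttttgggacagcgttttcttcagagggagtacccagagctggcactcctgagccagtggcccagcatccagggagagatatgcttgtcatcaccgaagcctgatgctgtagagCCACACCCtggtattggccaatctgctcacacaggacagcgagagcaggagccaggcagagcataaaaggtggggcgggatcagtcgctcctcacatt
In Gata1, the gene of a GATA factor itself, CACCC-type letters began 125, 109 and 88 bases before the start, and in Hba-a2 a GATA match and a CACCC-type match began 165 and 152 bases before it. These matches describe the sequence and do not show that a factor was bound. The Hba-a2 window was found by that symbol, whereas the brighter Hba-a2 probe lists only a transcript now named Hba-a1.

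Of 42877 spots per array, controls left out, 75.1% to 78.4% were well above background. Exposure was visible in Ahrr, a repressor of the aryl hydrocarbon receptor, which lay between -0.22 and 0.68 on the 6 TCDD arrays and between -6.26 and -4.98 on the 6 control arrays. The 14 pituitary markers were present on the arrays, with list means of -1.79 to -0.21 in TCDD males, -0.38 to 0.07 in control males, -0.98 to -0.82 in TCDD females and -0.53 to 0.06 in control females. Markers of sensory ganglion neurons were high on 6 arrays, with a mean of 22 markers between 0.18 and 1.52, against -3.15 to -2.66 on the other 6. Those 6 arrays were male TCDD 1 and 2, female TCDD 1 and 3, male control 2 and female control 2. Levels here and below are log2 intensities relative to the 75th percentile of the same array, and they are compared between arrays for a probe and never between probes.

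None of the 8 erythroid genes differed between TCDD and control fetuses at an adjusted p below 0.05, within either sex or over both. The fits were made with limma over 19399 genes, of which 0.0103% were called in males, 0.0103% in females and 0.0206% in the sexes together. Before adjustment none of the 8 had a p below 0.05 either, with a lowest value of 0.126 in males, 0.314 in females and 0.344 in the sexes together. In males 7 of the 8 genes were lower on average with TCDD, with a median difference of -0.32 against -0.0095 for all genes. In females 6 of the 8 were higher, with a median of 0.086 against -0.035 for all genes. In every comparison of TCDD with control the groups overlapped for all 8 genes, where the groups did not overlap for 14.4% of all genes in males, 6.96% in females and 0.68% in the sexes together.

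**Figure D1:**
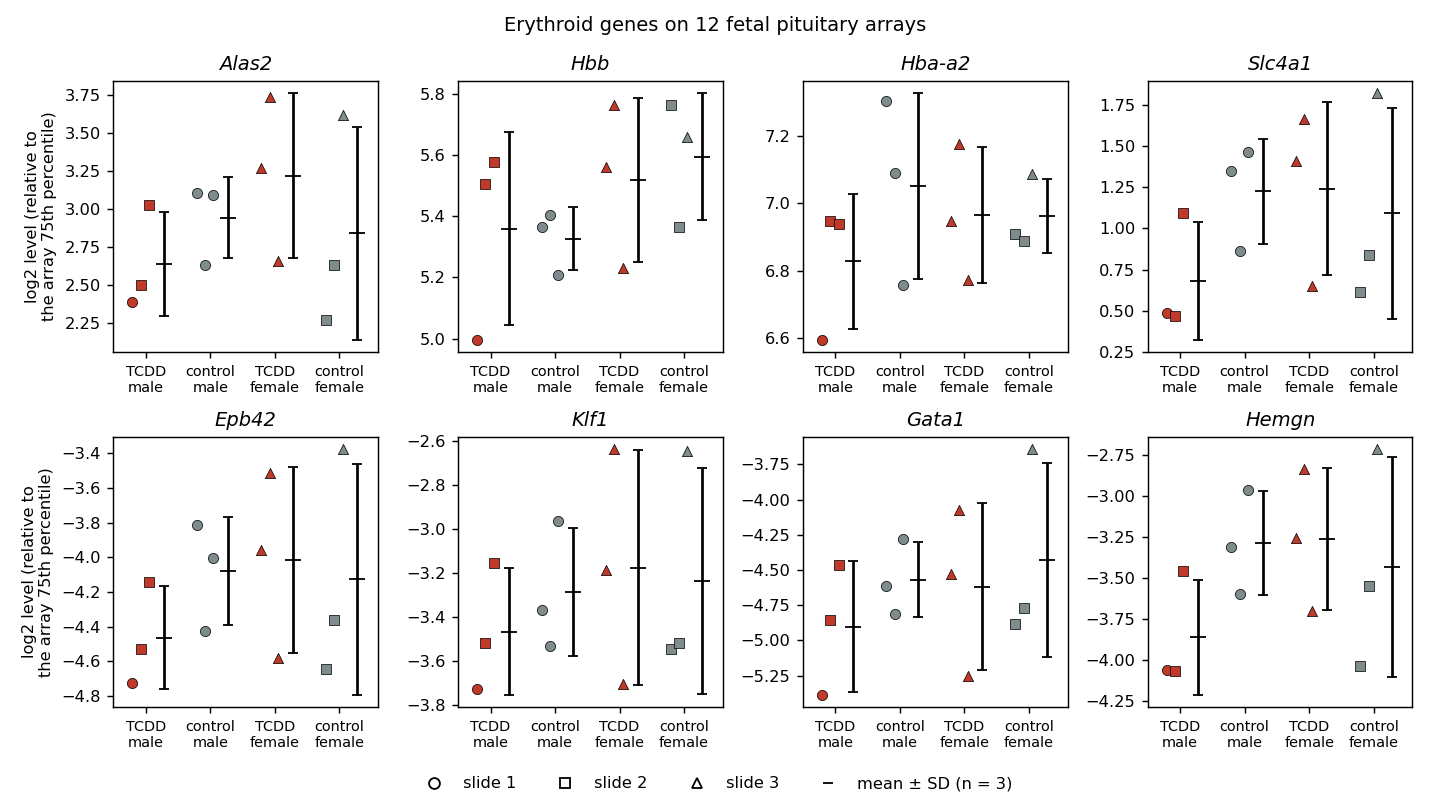
Log2 level of the brightest probe of each of the 8 genes, relative to the 75th percentile of the array, in the 4 groups of 3 arrays. Points are arrays, their shape gives the slide, and bars give the mean and SD. TCDD and control points overlap in every panel within each sex, and female TCDD 2 and female control 3 stand high for the 6 genes that are not globins.

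Alas2 encodes the erythroid form of the first enzyme of heme synthesis. Its levels were 2.39, 2.50 and 3.03 in TCDD males, against 3.11, 2.63 and 3.09 in control males. In TCDD females they were 3.27, 3.74 and 2.66, against 2.27, 2.63 and 3.62 in control females. The ranges of TCDD and control overlapped in both sexes, and the lowest and the highest array of all 12 were both female. The mean was 2.64 ± 0.34 in TCDD males and 2.94 ± 0.27 in control males (SD, n = 3 arrays each, as for all means below), a difference of -0.31 (95% interval -1.10 to 0.49, adjusted p = 0.674 in limma). In females it was 3.22 ± 0.54 with TCDD and 2.84 ± 0.70 in controls, a difference of 0.38 (-0.42 to 1.18), and the adjusted p in females was 1 for this gene and the other 7.

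Slc4a1 encodes band 3, the anion exchanger that also anchors the membrane skeleton of the red cell. Its levels were 0.48, 0.47 and 1.09 in TCDD males, against 1.35, 0.87 and 1.47 in control males. Female levels were 1.41, 1.67 and 0.65 with TCDD, against 0.61, 0.84 and 1.82 in control females. Male TCDD 1 and 2 lay below every control male, while male TCDD 3 lay above male control 2. The mean was 0.68 ± 0.36 in TCDD males and 1.23 ± 0.32 in control males, a difference of -0.55 (-1.32 to 0.23, adjusted p = 0.521 in limma). In females it was 1.24 ± 0.53 with TCDD and 1.09 ± 0.64 in controls, a difference of 0.15 (-0.62 to 0.93).

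Epb42 encodes protein 4.2, which binds band 3 and ankyrin. Its levels were -4.72, -4.53 and -4.14 in TCDD males, against -3.82, -4.42 and -4.00 in control males. In TCDD females they were -3.96, -3.51 and -4.58, against -4.65, -4.36 and -3.37 in control females. As for its partner Slc4a1, male TCDD 1 and 2 lay below every control male and male TCDD 3 above male control 2. The difference was -0.38 in males (-1.18 to 0.41, adjusted p = 0.607 in limma) and 0.11 in females (-0.69 to 0.91).

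Klf1 encodes the CACCC-binding factor that switches on the adult beta-globin gene. Its levels were -3.72, -3.51 and -3.15 in TCDD males, against -3.37, -3.53 and -2.96 in control males. Levels in females were -3.18, -2.63 and -3.70 with TCDD, against -3.54, -3.52 and -2.64 in control females. Single arrays of either treatment were the highest, namely female TCDD 2 and female control 3. The difference was -0.18 in males (-0.88 to 0.52, adjusted p = 0.785 in limma) and 0.061 in females (-0.64 to 0.76).

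Gata1 encodes the master transcription factor of the erythroid and megakaryocyte lineages. Its levels were -5.39, -4.86 and -4.46 in TCDD males, against -4.61, -4.81 and -4.28 in control males. In TCDD females they were -4.53, -4.08 and -5.25, against -4.88, -4.77 and -3.64 in control females. Gata1 had the widest range of the 8 genes over the 12 arrays, 3.36-fold between female control 3 and male TCDD 1. Its processed intensities on these arrays were low, at 74.4 and 26.9. The difference was -0.33 in males (-1.21 to 0.54, adjusted p = 0.676 in limma) and -0.19 in females (-1.07 to 0.69).

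Hemgn encodes hemogen, a nuclear protein of blood-forming cells whose gene is a target of GATA1. Its levels were -4.06, -4.07 and -3.46 in TCDD males, against -3.31, -3.60 and -2.96 in control males. The female levels were -3.25, -2.83 and -3.70 with TCDD, against -4.04, -3.55 and -2.71 in control females. Male TCDD 3 was the only TCDD male inside the range of the control males. The mean was -3.86 ± 0.35 in TCDD males and -3.29 ± 0.32 in control males. The difference of -0.57 was the largest among the 8 genes in males (-1.34 to 0.19, adjusted p = 0.52 in limma). In females the difference was 0.17 (-0.60 to 0.94).

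Hbb and Hba-a2 encode beta-type and alpha-type chains of hemoglobin. At the brighter Hbb probe the levels were 5.00, 5.50 and 5.58 in TCDD males, against 5.36, 5.41 and 5.21 in control males. In TCDD females they were 5.56, 5.76 and 5.23, against 5.76, 5.36 and 5.66 in control females. Male TCDD 1 was the lowest of all 12 arrays, while the other TCDD males lay above every control male. The difference was 0.034 in males (-0.36 to 0.43, adjusted p = 0.931 in limma) and -0.076 in females (-0.47 to 0.32).

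At the brighter Hba-a2 probe the levels were 6.60, 6.95 and 6.94 in TCDD males, against 7.30, 7.09 and 6.76 in control males. Those of females were 6.95, 7.17 and 6.77 with TCDD, against 6.91, 6.89 and 7.09 in control females. Male TCDD 1 was again the lowest array, and male control 1 was the highest. The difference was -0.22 in males (-0.57 to 0.12, adjusted p = 0.536 in limma) and 0.0035 in females (-0.34 to 0.35).

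The dimmer globin probes, which hold the start codons, differed from the brighter ones in how far they varied. At the dimmer Hbb probe the levels were 3.66, 3.74 and 4.22 in TCDD males, against 4.14, 3.98 and 4.12 in control males. Levels in females were 4.38, 4.80 and 3.81 with TCDD, against 3.75, 3.88 and 4.45 in control females. Here male TCDD 1 and 2 lay below every control male, as they did for Slc4a1, and female TCDD 2 was the highest array. The difference was -0.21 in males (-0.78 to 0.35) and 0.30 in females (-0.27 to 0.87), so the sign in each sex was opposite to that at the brighter probe. At the dimmer Hba-a2 probe the differences were -0.059 in males (-0.57 to 0.45) and 0.061 in females (-0.45 to 0.57).

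Averaged over both sexes, the differences of the 8 genes lay between -0.26 (Gata1) and 0.037 (Alas2), with adjusted p-values of 0.712 to 0.961 in limma. The narrowest intervals belonged to the globins at their brighter probes, with -0.11 (-0.35 to 0.14) for Hba-a2 and -0.021 (-0.30 to 0.26) for Hbb. For Gata1 the interval ran from -0.88 to 0.36, for Slc4a1 from -0.74 to 0.35, for Hemgn from -0.74 to 0.34, for Epb42 from -0.70 to 0.43, for Klf1 from -0.56 to 0.44 and for Alas2 from -0.53 to 0.60.

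**Figure D2:**
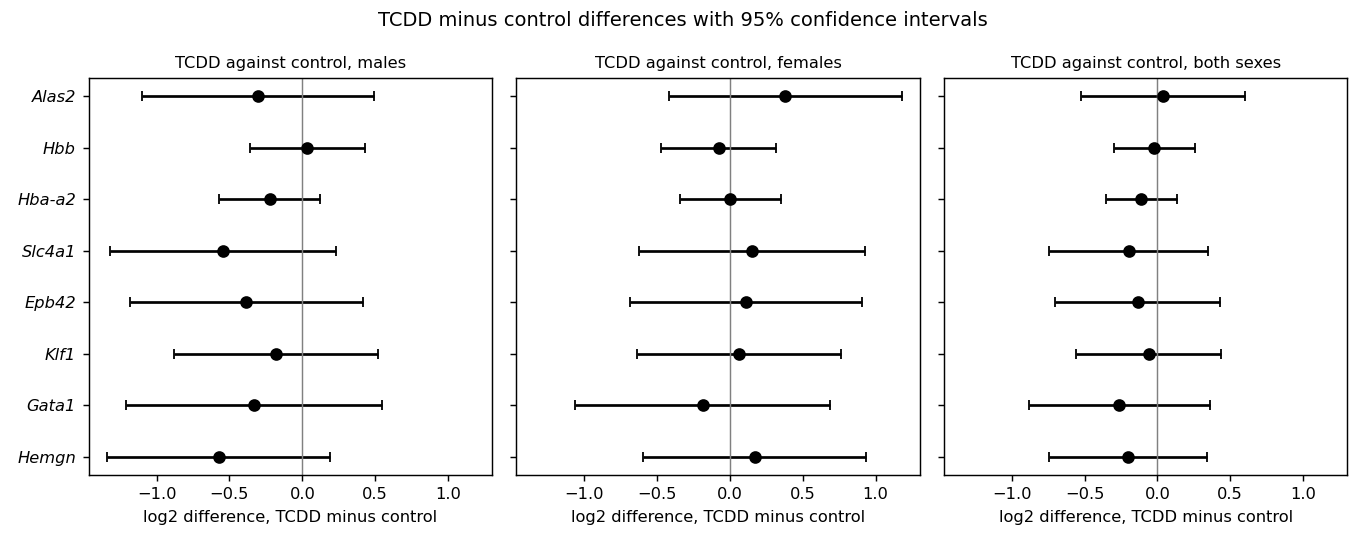
Difference of the log2 level, TCDD minus control, for the brightest probe of each gene in males (left), females (middle) and both sexes (right). Points are limma estimates and bars their 95% confidence intervals, all of which include 0. The estimates lie between -0.57 and 0.034 in males and between -0.19 and 0.38 in females.

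The TCDD difference in males minus that in females was negative for 7 of the 8 genes, with a median of -0.37 against 0.052 for all genes. It was -0.75 for Hemgn (95% interval -1.83 to 0.34), -0.70 for Slc4a1 (-1.79 to 0.40) and -0.69 for Alas2 (-1.81 to 0.44), with an adjusted p of 0.883 in limma for each. No gene of the 19399 was called in this test (0%), while 868 had an unadjusted p below 0.05. Between male and female controls 0 of the 8 erythroid genes were called, against 0.0103% of all genes, and the groups overlapped for all 8, while for 10.6% of all genes they did not. Their differences, male minus female, ran from -0.27 (Hbb) to 0.14 (Hemgn), with a median of 0.067 against -0.033 for all genes.

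The size and sign of the differences moved with the treatment of the slide in the fit. Slide 1 held male TCDD 1 with the 3 control males, slide 2 held male TCDD 2 and 3 with female control 1 and 2, and slide 3 held the 3 TCDD females with female control 3. Within slide 1 the median difference of the 8 genes in males was -0.60, a value that rests on male TCDD 1. Within slide 3 the median in females was -0.54, a value that rests on female control 3, and so was of opposite sign to the value over all arrays. Slide 2 held no TCDD and control arrays of the same sex. A fixed block for slide therefore gives, within each sex, the same differences as slides 1 and 3 alone. Its differences of TCDD with control thus also rest on male TCDD 1 and female control 3. With slide as a fixed block the median over both sexes was -0.56, with all 8 genes lower with TCDD. Gata1 then differed by -0.90 (adjusted p = 0.183 in limma), Hemgn by -0.66 (0.199) and Slc4a1 by -0.66 (0.201). Their unadjusted p-values in that limma fit were 0.0155, 0.0439 and 0.0472 in the same order. None of the 8 was called with the fixed block, and with slide as a random block the medians were -0.33 for males, -0.02 for females and -0.17 for the sexes together.

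The erythroid level also varied among the single arrays of a group. With each gene centred on its own mean, the mean of the 8 genes was -0.53, -0.30 and 0.08 in TCDD males, against 0.15, -0.15 and 0.19 in control males. It was 0.18, 0.56 and -0.34 in TCDD females, against -0.30, -0.16 and 0.62 in control females. Female TCDD 2 was the highest array for 3 genes and female control 3 for 4, while male TCDD 1 was the lowest for 5. For the 6 genes that are not globins, female TCDD 2 stood at 1.57 times, female control 3 at 1.71 times and male TCDD 1 at 0.671 times the geometric mean of the 12 arrays. Without female control 3 the median difference in females was 0.42, and without female TCDD 2 it was -0.12. In males it was -0.14 without male TCDD 1 and -0.52 without male TCDD 3.

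**Figure D3:**
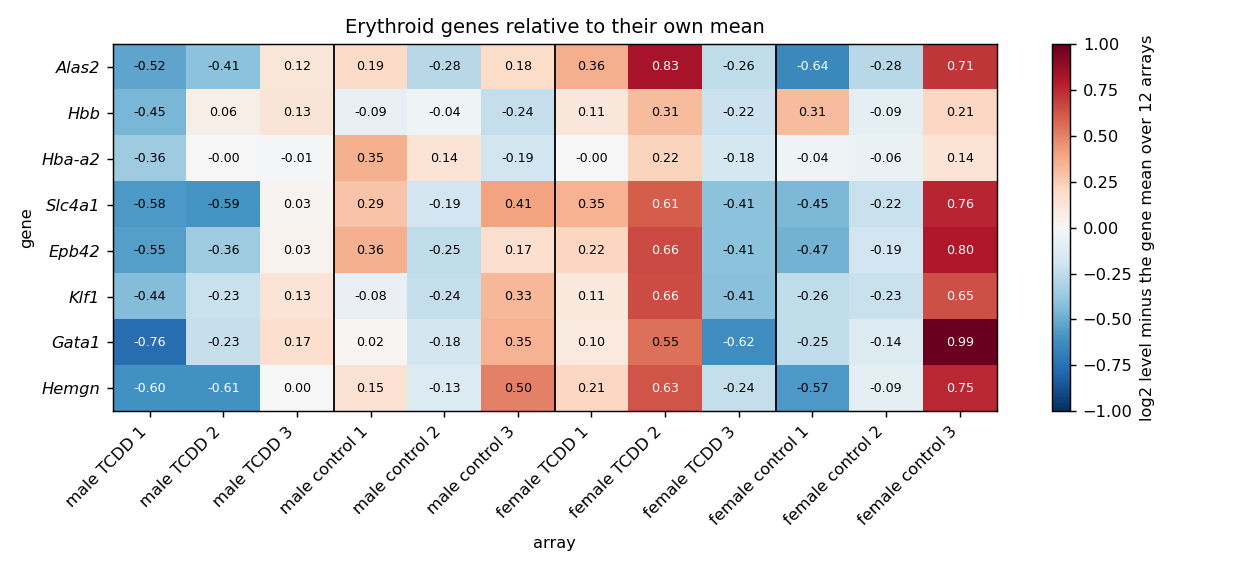
Log2 level of each gene (rows, brightest probe) minus its own mean over the 12 arrays (columns, by group). Numbers in the cells are these differences and red is above the mean. All 8 genes lie above their mean on female TCDD 2 and female control 3 and none does on male TCDD 1, female TCDD 3 or female control 2.

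The 6 genes that are not globins moved together. Over the 12 arrays their 15 pairs had Pearson correlations of 0.865 to 0.976 and Spearman correlations of 0.832 to 0.993. The Pearson values were 0.747 to 0.956 without female TCDD 2 and female control 3, the arrays farthest from the median, and 0.924 to 0.992 after group means were removed. The brighter globin probes followed less closely, with 0.307 to 0.646 for the 12 pairs of a globin with another gene. The arrays share normalisation and, in part, slides, so these correlations are given as descriptions.

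The 2 probes of each globin gave different pictures. Against the mean of the 6 other genes, the dimmer Hbb probe had a correlation of 0.932 (0.927 without the 2 farthest arrays) and a slope of 0.724 on the log2 scale. The brighter Hbb probe had 0.462 (0.130) and a slope of 0.245. For Hba-a2 the dimmer probe had 0.873 (0.683) and a slope of 0.633, while the brighter one had 0.551 (0.392) and 0.243. Over the 12 arrays the brighter probes of Hbb and Hba-a2 covered 1.70-fold and 1.63-fold, and the dimmer ones 2.20-fold each. No globin spot was flagged as saturated, and whether the signal was compressed below that flag was not tested. Processed intensities ran from 35925.8 to 52793.0 at the brighter Hbb probe and from 13105.6 to 26374.5 at the dimmer one. For Hba-a2 they ran from 108856.4 to 148086.5 at the brighter probe and from 30898.4 to 57289.6 at the dimmer one.

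Beside all genes on the array, the 6 genes that are not globins varied more than most. Their SDs over the 12 arrays lay between percentile 71.5 (Klf1) and percentile 80.7 (Gata1) of the genes tested. These percentiles were not matched for level, and Gata1, Epb42, Hemgn and Klf1 were read at low intensity. Alas2 and Slc4a1, read at higher intensity, lay at percentiles 80.1 and 79.8. The brighter probes of Hbb and Hba-a2 lay at percentiles 48.2 and 38.4.

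The genes whose pattern over the 12 arrays was most like the mean of the 8 included several of known red cell function. Ranked by Pearson correlation over 19359 genes that are no members, the first was LOC688972 (0.986), which the files describe as similar to glycophorin, a red cell surface protein. Rhd, of the Rh blood group complex, had 0.973, Nfe2, a transcription factor of globin and platelet genes, had 0.970, and Blvrb, a biliverdin reductase of red cells, had 0.969. Urah, Cd52, RGD1309374, Gng12, Tmem86b and Csda completed the 10 closest genes. Among the lowest correlations were those of Gprasp2 (-0.965), Zwint, Sh3bp5l and Mrap2. The median over all genes was 0.213, and 4.95% of genes were above 0.8.

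Other genes of the erythroid programme were taken from 4 lists, and none of their measured members was called in any comparison of TCDD with control. Of all genes only 0.0103% were called in males, 0.0103% in females and 0.0206% in the sexes together. Of the other globins 7 were tested, and all 7 were above 0 in females and over both sexes, while in males 3 were above 0 and 4 below. The difference over both sexes was 0.37 for the embryonic alpha-type gene Hbz (adjusted p = 0.671 in limma), 0.24 for the embryonic beta-type gene Hbe1, 0.20 for Hba-a3 and 0.12 for Hbe2. In females these differences were 0.55, 0.49, 0.47 and 0.085 in the same order, while in males Hbz differed by 0.19 and Hbe1 by -0.0021. Like Hbb, these genes have near copies. The median of the list was 0.12, against -0.023 for all genes.

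For heme synthesis and iron, 25 genes were tested with a median difference of -0.024 over both sexes. The largest differences were 0.54 for Steap3, an endosomal ferrireductase, 0.38 for the transferrin receptor gene Tfrc, 0.31 for Tfr2 and -0.28 for Glrx5, a mitochondrial glutaredoxin of iron-sulfur assembly. The enzymes of heme synthesis did not all follow the mean of the 8 genes. Correlations to it were 0.938 for ferrochelatase (Fech), 0.884 for Urod, 0.834 for Cpox, 0.675 for Alad, 0.472 for Ppox and -0.803 for Uros. Alas1, the form of the first enzyme found in all tissues, had -0.431, and Tfrc had -0.455.

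For the erythroid membrane, 23 genes were tested with a median difference of 0.038. The largest differences were 0.73 for ankyrin 1 (Ank1), -0.59 for Rhag, a partner of Rhd in the Rh complex, -0.42 for carbonic anhydrase 1 (Car1) and 0.38 for Epb49, which encodes dematin. Rhag and Car1 followed the 8 genes (0.868 and 0.858), as did Car2 (0.959) and Kel (0.949). Ank1 and Epb49 ran the other way (-0.610 and -0.771). For transcription and maturation, 25 genes were tested with a median of -0.068. The erythropoietin receptor gene Epor differed by -0.33, Trim10 by 0.28, the alpha globin chaperone gene Ahsp by -0.27 and Gata2 by -0.26. Ahsp followed the 8 genes at 0.960 and Gata2, which earlier progenitors use, at 0.075. Gfi1b and Ermap were well above background on none of the arrays.

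**Figure D4:**
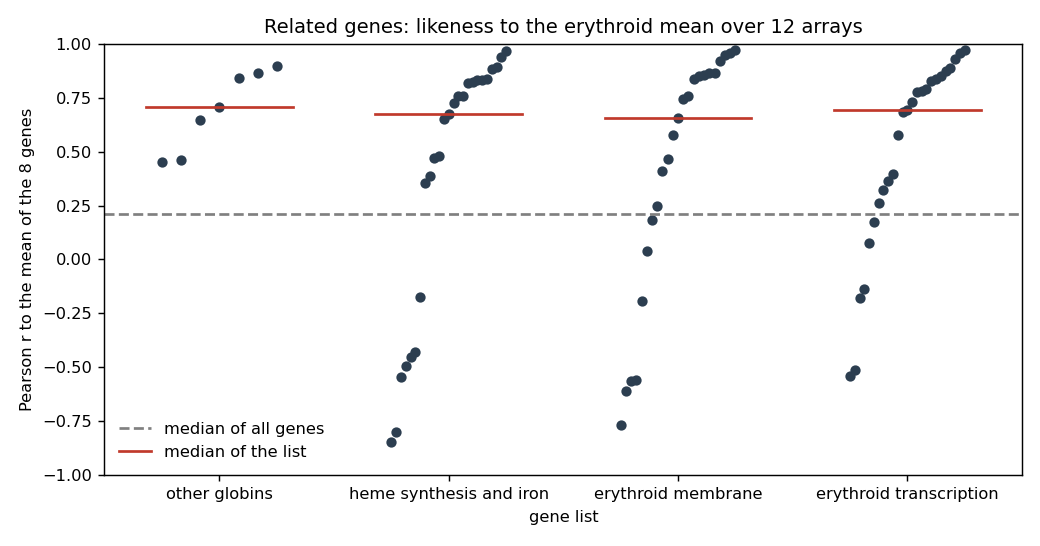
Pearson correlation over 12 arrays between each measured gene of 4 lists and the mean of the 8 erythroid genes (vertical axis). Each point is a gene, red lines are list medians and the dashed line is the median of all genes. List medians lie between 0.657 and 0.707 against 0.213 for all genes, and each list except the other globins has members below 0.

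Markers of other cell types moved with the erythroid genes to different degrees. The 14 macrophage markers, all well above background on every array, had a median correlation of 0.863 to the mean of the 8 genes. Their list mean lay between -1.32 and -0.44 in TCDD males, against -0.67 to -0.32 in control males. In females it lay between -0.76 and -0.29 with TCDD, against -0.87 to -0.24 in controls. In males all 14 were lower with TCDD, with a median of -0.48 against -0.0095 for all genes. None was called, where 0.0103% of all genes were. The 12 endothelial and 7 liver and plasma markers were also all lower on average in males, as were 13 of the 14 pituitary markers. By contrast, 4 of 6 granulocyte, 3 of 4 lymphoid and 22 of 23 ganglion markers were higher. The liver and plasma list mean was -3.50, -0.65 and -5.15 in control males, which overlaps the -5.29 to -4.04 of TCDD males. Of the 9 liver and plasma markers on the array, 6 were not well above background on all 12 arrays. The part of macrophages in the erythroid differences was not tested.

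The 12 endothelial markers had a median correlation of 0.695, with list means between -0.71 and -0.02 in TCDD males, against -0.32 to 0.14 in control males. In females these means lay between -0.18 and 0.24 with TCDD, against -0.51 to 0.02 in controls. Of 13 megakaryocyte and platelet markers 8 were tested (median correlation 0.581), with list means between -3.75 and -3.45 in TCDD males, against -3.58 to -3.23 in control males, and between -3.72 and -3.29 in TCDD females, against -3.63 to -3.07 in control females. Of 11 granulocyte markers 6 were tested (0.134) and of 10 lymphoid markers 4 (0.049). Granulocyte list means lay between -4.96 and -4.15 in TCDD males, against -5.24 to -4.32 in control males. The part of these cells in the erythroid differences was not tested.

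Fetal liver makes red cells, so its transcripts were examined too. The 7 liver and plasma markers tested had a median correlation of -0.073 to the 8 genes. Their list mean was -0.65 on male control 2 and -0.14 on female control 2, against -5.29 to -2.82 on the other 10 arrays. These 2 arrays with the high liver signal had erythroid means of -0.15 and -0.16, below the mean of the 12 arrays.

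The ganglion signal ran in part opposite to the erythroid genes, with a median correlation of -0.690 for its 23 tested markers. On the 6 arrays with it, the mean of the 6 erythroid genes that are not globins was -0.57 (male TCDD 1), -0.40 (male TCDD 2), 0.22 (female TCDD 1), -0.39 (female TCDD 3), -0.21 (male control 2) and -0.19 (female control 2). On the 6 without it, the mean was 0.08 (male TCDD 3), 0.66 (female TCDD 2), 0.15 (male control 1), 0.32 (male control 3), -0.44 (female control 1) and 0.78 (female control 3). Female TCDD 1 and female control 1 thus lay apart from the other arrays of their kind. Without the 6 arrays the median difference of the 8 genes was -0.08 for males, 0.45 for females and 0.12 for the sexes together. These values rest on 1 TCDD array per sex, male TCDD 3 and female TCDD 2, against 2 control arrays per sex.

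**Figure D5:**
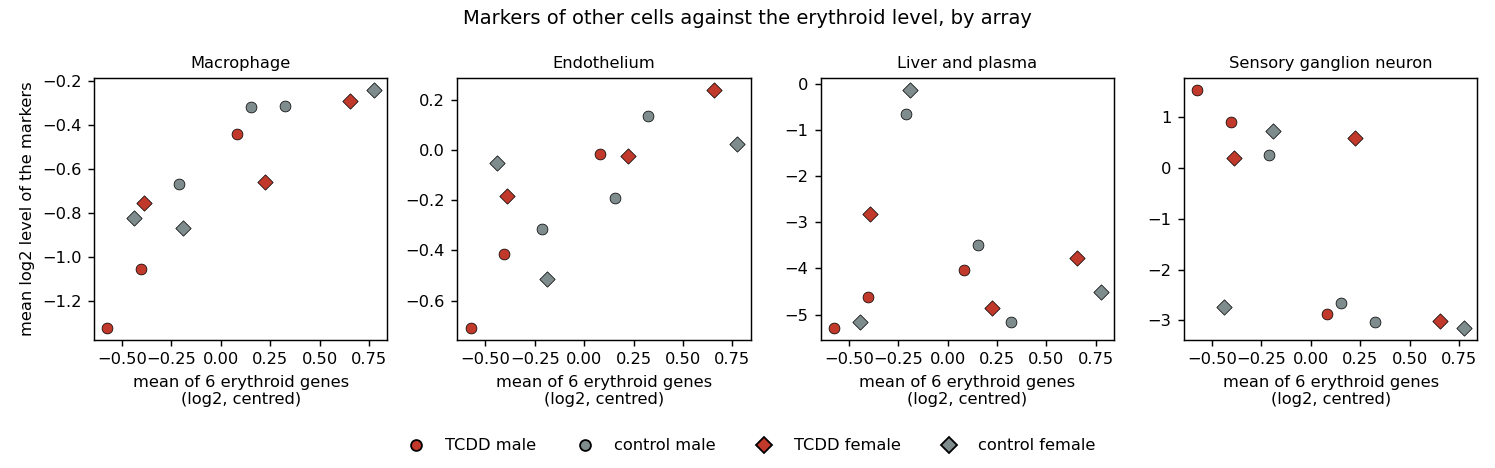
Mean log2 level of the markers of 4 other cell types or tissues (vertical axes) against the mean of the 6 erythroid genes that are not globins, centred (horizontal axes), with a point for each of 12 arrays. Macrophage markers run with the erythroid level, and liver markers stand high on 2 control arrays that are near the middle. Ganglion markers are high on 6 arrays, 5 of which lie below 0 for the erythroid genes.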

How the data were processed

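Total RNA of 12 samples was amplified, labelled with Cy3 and hybridised to a rat 44K array, per the labels' protocols. The deposited scanner files hold spot intensity on a linear scale, written by Agilent Feature Extraction 10.7.1.1 per the file headers, and the submitters' processing notes give 9.5.1.1 for the same program. The authors' deposited value table, also intensity, served as an alternative.

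Processed intensities were put on the log2 scale, less the array's 75th percentile, without controls and outlier spots. Of 30367 probes, 22449 were kept as well above background on at least 3 arrays with at least 10 values, and the brightest of these stood for its gene. Groups were compared with limma 3.58.1 (R 4.3.3) in a fit of the 12 arrays with group means and a variance trend. The p-values were adjusted by Benjamini and Hochberg's method over 19399 genes, with calls at an adjusted p under 0.05. The number of arrays limits the precision. The fit was checked on simulated data with independent values for each gene and array. That check held no slide effect and no signal shared among genes, so it does not speak to either.

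The members and lists were chosen with earlier results of these data known. From each list of related genes, the 4 with the largest absolute difference over both sexes are named. The genes most like the 8 are the 10 highest and 5 lowest correlations, of which 1 is not reported here. Genes named beyond these rules (Fech, Urod, Cpox, Alad, Ppox, Uros, Alas1, Car2, Kel) were chosen after their values were seen. Probe positions are on rn4 and promoters on GRCr8.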

Additional observations from a re-analysis of the deposited data

How the results depend on the processing

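No member was called in any of the 125 fits made over the 5 comparisons and the alternatives tried. Of 1000 differences of single members under an alternative, 35 moved by more than the spread between replicates, 33 of them under settings that use the slide. None of these was called before or after, and 100 differences changed sign. With slide as a fixed block the median difference of the members was -0.54 in females, -0.56 over both sexes and 0.80 between male and female controls, and within slide 3 it was -0.54 in females. The fixed-block differences of TCDD with control rest on male TCDD 1 and female control 3, as those within slides 1 and 3 do. The number of all genes called moved more. With normexp it was 1 in males, 1 in females and 1 between controls, and with a filter on all 12 arrays it was 1 in each of these. Without the ganglion arrays limma called 0 in males, females, both sexes and controls, where 935, 490, 544 and 813 genes had an unadjusted p below 0.05. That fit had 1 TCDD and 2 control arrays per sex, and the lone TCDD arrays are assumed to vary like the controls. With slide as a fixed block it called 26 in males, 15 over both sexes, 6 for the sex difference and 10 between controls. Within slide 1 it called 276 in males, and within slide 3 it called 0 in females (534 at an unadjusted p below 0.05). It called 4 in males without a variance trend, 1 in males when only males were fitted, 0 between controls when only controls were fitted, and 9 over both sexes with median centring. With the replicate block it called 2 over both sexes, against 4 without it. Same-numbered arrays did not all deviate together, so the numbers were not taken as pairs. Leaving out each array in turn gave 2 to 3 calls in males, 2 to 3 in females, 4 to 9 over both sexes (9 without male TCDD 1, 7 without male TCDD 3 or female control 1), and 1 to 2 between controls. The member medians then ran from -0.52 to -0.14 in males, -0.12 to 0.42 in females, -0.23 to -0.01 over both sexes, -0.71 to -0.18 for the sex difference and -0.18 to 0.34 between controls. With a normexp correction the member median in males was -0.22. The cause of these shifts was not tested.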
